A study of Mus musculus with 8 samples.

Results

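Integrins are paired alpha and beta receptors that hold cells to the matrix, and syndecans and glypicans are cell surface proteoglycans that carry heparan sulfate chains. Their transcripts were examined in RNA sequencing counts of 8 mouse samples that the labels call adipocytes, 4 labelled BMPR2 DELX and 4 labelled ROSA. The series design names the BMPR2 DELX mice as mutant and ROSA as their control, and the question is how expression differs between them. Members were taken by gene symbol from the GRCm38 annotation, as the protein-coding integrin alpha and beta chains, syndecans 1 to 4 and glypicans 1 to 6. This gave 36 genes of 49671 gene rows, made up of 18 integrin alpha, 8 integrin beta, 4 syndecan and 6 glypican genes. The rule itself used gene symbols and no measured value, but it was chosen with earlier results of these data known. The nature of the DELX and ROSA alleles, any driver of a transgene or recombinase, and the age, sex, strain and treatment of the mice are not given in the sources used here.

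Integrin beta chains each pair with a limited set of alpha chains, and the pair sets the ligand: alpha 5 beta 1 binds fibronectin, alpha v pairs bind vitronectin and other proteins with an RGD motif, and further beta 1 pairs bind collagens or laminins. Inside the cell, talins and kindlins bind the beta tail and link it through tensins and vinculin to actin. Syndecans span the membrane and glypicans are held by a lipid anchor, and the heparan sulfate of both binds matrix proteins and growth factors, BMPs among them. BMPR2 is the type II receptor for BMP ligands.

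Total gene counts ran from 28799445 to 43684785 per library, and 14887 genes had enough counts for testing. Levels are counts per 1000000 counts scaled by trimmed mean of M values (TMM) factors (CPM), and each difference is a log2 ratio of BMPR2 DELX to ROSA given with its standard error (SE), n = 4 per group. Genes were called at an adjusted p below 0.05 in edgeR's quasi-likelihood test, adjusted over all genes tested by the method of Benjamini and Hochberg. Whether each sample is another animal is not in the labels, so p-values measure only the spread between these samples. Bmpr2 (ENSMUSG00000067336), the gene in the mutant label, had 237, 208, 201 and 199 CPM in BMPR2 DELX libraries and 216, 207, 183 and 183 CPM in ROSA libraries. The groups overlapped, with a log2 fold change of 0.10 ± 0.08 (SE, edgeR adjusted p = 0.47). Whole-gene counts say nothing of the exons in a transcript, so they do not check the allele. Of 10 adipocyte markers, 9 stayed under 1 CPM in all 8 libraries, and Adipoq, encoding adiponectin, reached at most 6 counts. Fibroblast and stromal markers summed to 10090 to 14807 CPM in BMPR2 DELX libraries and 9233 to 11537 CPM in ROSA libraries. Smooth muscle and pericyte markers were similarly high, at 9428 to 12857 CPM in BMPR2 DELX libraries and 10998 to 14581 CPM in ROSA libraries. The labelled cell type is therefore kept here only as a label.

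The cells expressed a set of integrins and proteoglycans dominated by a few members. Per kilobase of exon, Itgb1, the beta 1 chain shared by many integrins, had 471 ± 49.7 CPM in BMPR2 DELX, against 657 ± 14.5 CPM in ROSA (mean ± SD over 4 libraries, as throughout). Itga5, the fibronectin receptor alpha chain, came next with 407 ± 57.8 CPM per kilobase in BMPR2 DELX and 461 ± 34.2 in ROSA. Itgb5, a partner of the alpha v chain, had 139.98 ± 28.2 CPM per kilobase in BMPR2 DELX and 100.6 ± 4.43 in ROSA. Gpc4 was the leading glypican at 124 ± 18.4 CPM per kilobase in BMPR2 DELX and 147 ± 23.3 in ROSA. The syndecans lay closer together, each with a mean between 35.3 and 103.8 CPM per kilobase in either group. Itga11, a collagen-binding alpha chain of mesenchymal cells, had 35.9 ± 4.52 CPM per kilobase in BMPR2 DELX and 40.6 ± 2.85 in ROSA. Itgav had 31.9 CPM per kilobase in BMPR2 DELX and 43.3 in ROSA, so that it lay below Itga11 in BMPR2 DELX and above it in ROSA. Itga3, Itga6 and Itga9 followed in both groups. A group of 7 members had too few counts for testing, with at most 10 counts in any library: Itgax, Itgae, Itgam, Itgal, Itgad, Itgb6 and Gpc5. Of these, 5 are alpha chains of leukocyte integrins, and none of that class was tested. Another annotated gene, Gm49368, covers 68.7% of the Itgam exon length on the same strand, so the reads of Itgam are uncertain. A count of 0 allows up to 3 counts, or 0.0687 to 0.104 CPM in these libraries, for counting error only.

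**Figure D1:**
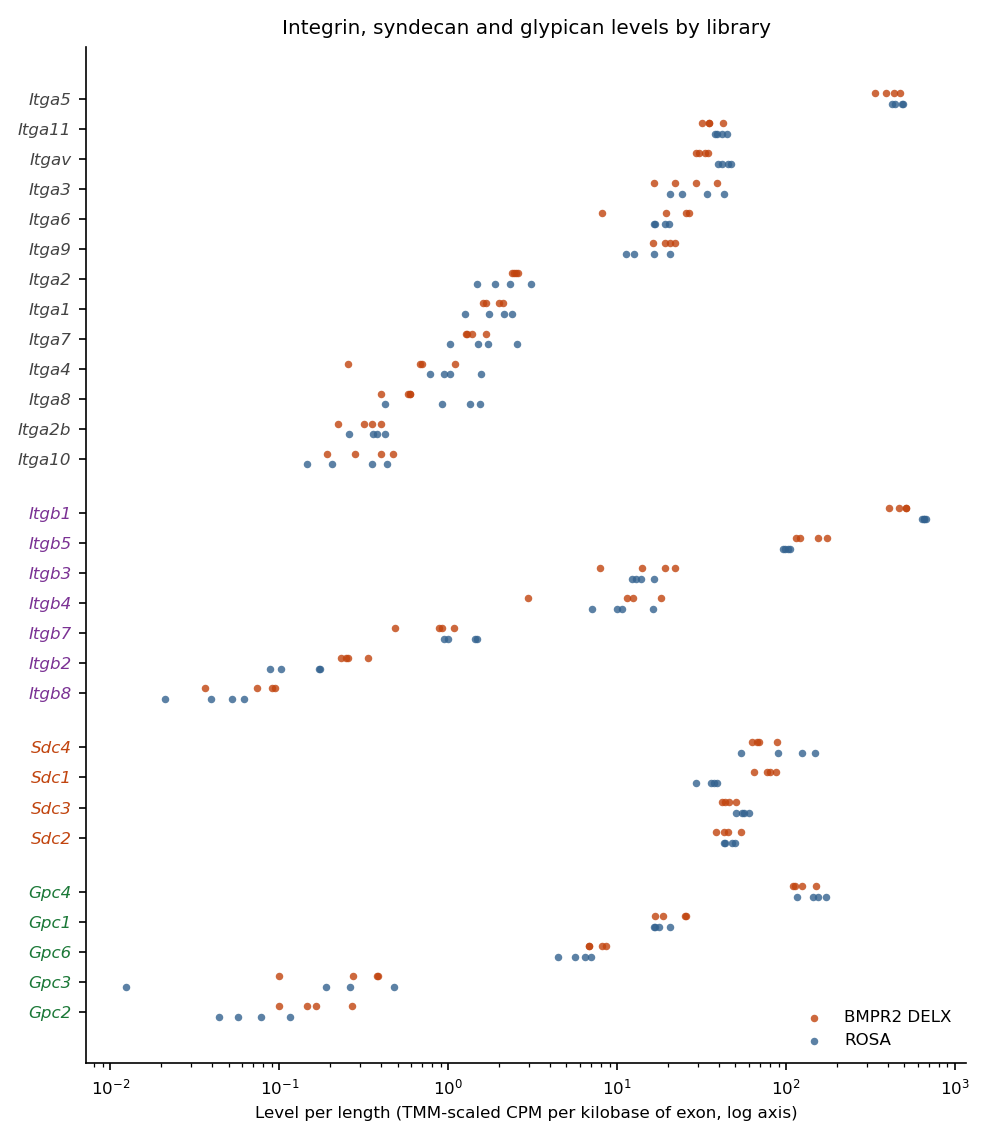
Level of each member per kilobase of exon (TMM-scaled CPM, log axis) with 1 point per library, BMPR2 DELX above ROSA within each gene. Itgb1 and Itga5 lie at the top, and Sdc1 and Itgb1 are among the members whose groups do not overlap.

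Among the 29 tested members, 5 were called: Sdc1 and Itgb5 were higher in BMPR2 DELX, and Itgb1, Itgav and Sdc3 were lower. That is 17.2% of the tested members, against 9.1% of all tested genes. By direction, 3.96% of all tested genes were higher and 5.15% lower. The libraries of the 2 groups did not overlap for 6 members, 20.7% of those tested, against 18.0% of all genes. Unadjusted p was below 0.05 for 9 members, against 26.3% of all genes. The members' median log2 fold change was -0.02, against 0.0045 for all genes tested, with 14 positive and 15 negative values. Higher and lower values were thus near balance. By family, 1 of 13 tested alpha chains, 2 of 7 beta chains, 2 of 4 syndecans and 0 of 5 glypicans were called. Within families the calls ran in opposite directions, since Itgb5 was higher and Itgb1 lower among beta chains, and Sdc1 was higher and Sdc3 lower among syndecans. The calls of Itgb5 and Sdc3 were each lost in 7 of the 8 refits that left out 1 library. In bulk samples like these, fewer cells of a type and less RNA per cell cannot be told apart.

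**Figure D2:**
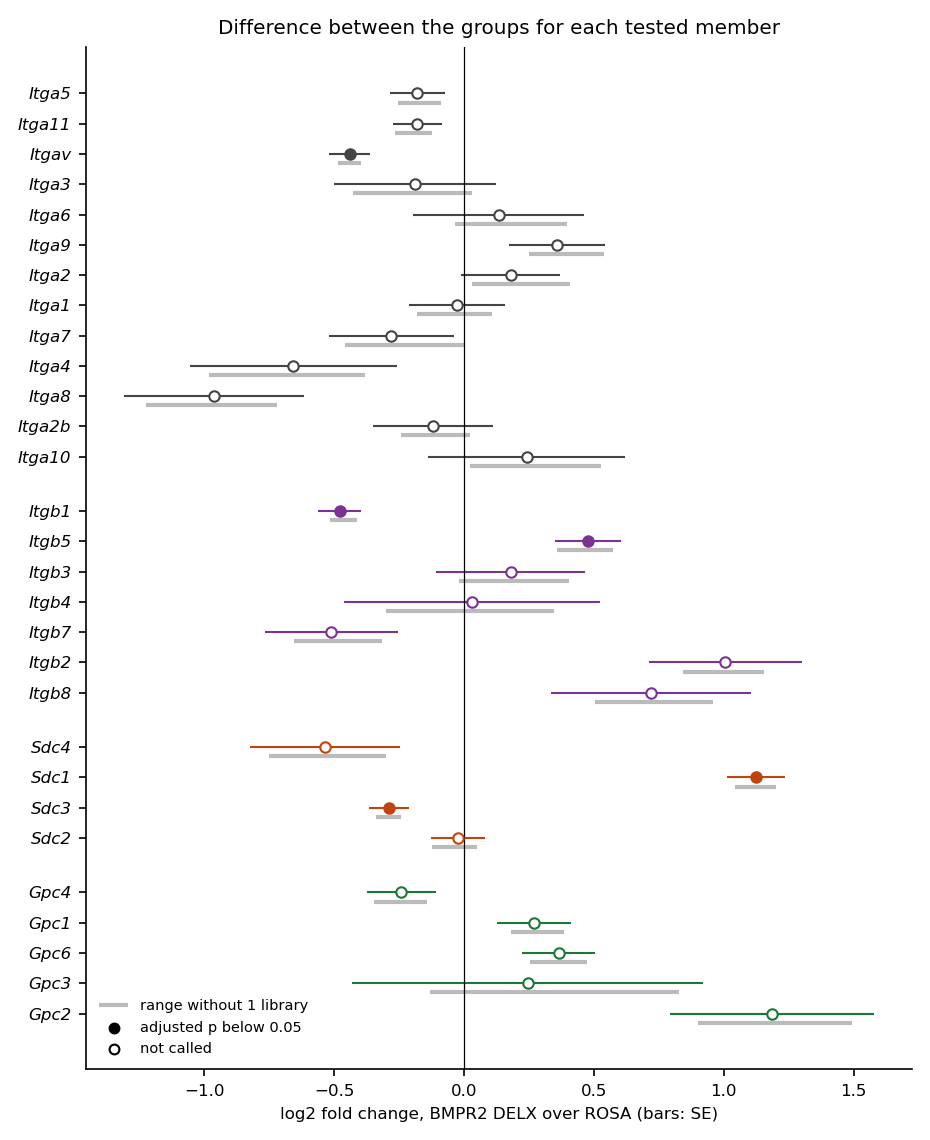
Log2 fold change of BMPR2 DELX over ROSA for the 29 tested members, with SE bars. Filled points mark adjusted p below 0.05 and grey lines the range over refits without 1 library. Sdc1 stands at 1.12 and Itgb1 at -0.48, while Itga6, Itgb4 and Gpc3 have wide bars across 0.

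Sdc1 and Itgb1 are the members with the smallest p in each direction, and Itgav follows Itgb1. The bases before their starts are therefore shown, from RefSeq on GRCm38.p6, which matched 25 of the 36 members. All are on the + strand and written 5′ to 3′. Capitals mark GGGCGG, the GC box bound by SP family factors, or GGCGCC, a GC-rich element bound by SMAD proteins, on either strand. Each search covered the 250 bases before the RefSeq start. GENCODE starts the Sdc1 gene earlier than RefSeq, so 177 bases are printed for it, at chr12:8771146-8771322. The Itgb1 window is chr8:128685404-128685653 and the Itgav window chr2:83724147-83724396.
Sdc1: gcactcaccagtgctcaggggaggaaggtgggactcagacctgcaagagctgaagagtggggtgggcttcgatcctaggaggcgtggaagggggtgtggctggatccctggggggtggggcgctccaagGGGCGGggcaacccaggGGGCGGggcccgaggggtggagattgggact
Itgb1: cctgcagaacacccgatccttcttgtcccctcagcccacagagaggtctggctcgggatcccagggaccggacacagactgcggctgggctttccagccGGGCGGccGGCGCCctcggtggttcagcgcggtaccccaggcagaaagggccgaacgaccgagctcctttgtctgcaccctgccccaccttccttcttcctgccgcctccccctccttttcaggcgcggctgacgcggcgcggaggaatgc
Itgav: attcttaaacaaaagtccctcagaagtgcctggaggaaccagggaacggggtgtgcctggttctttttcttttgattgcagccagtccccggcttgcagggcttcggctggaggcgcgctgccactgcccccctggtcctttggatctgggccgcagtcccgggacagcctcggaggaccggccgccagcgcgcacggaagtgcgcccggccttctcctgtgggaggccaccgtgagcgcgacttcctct
The Sdc1 window held 3 GC boxes, of which 2 lie in the printed bases. The Itgb1 window held 1 GC box and 1 GGCGCC element, close together and without overlap, and the Itgav window held neither. Itgb5 and Sdc3, the other called members, had 3 GC boxes each and no GGCGCC. None of these 5 windows held TGANTCA, the AP-1 site. Of 32851 windows of the same length, 32.7% held GGGCGG, 9.59% held GGCGCC and 6.75% held TGANTCA. Higher and lower members thus both included windows with GC boxes, and a match describes letters only.

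Among the syndecans, Sdc1 rose and Sdc3 fell in BMPR2 DELX, while Sdc4 and Sdc2 were not called. Sdc1 (ENSMUSG00000020592, GRCm38 chromosome 12, 8771323 to 8793715), known mainly from epithelial and plasma cells, had 295, 245, 331 and 303 CPM in BMPR2 DELX libraries, against 137, 148, 111 and 142 CPM in ROSA libraries. Every BMPR2 DELX library lay above every ROSA library, and the lowest of them stood well clear of the highest ROSA library. This is a 2.18-fold higher level, or 1.12 ± 0.11 (SE) in log2 units, at an edgeR adjusted p of 0.0013. Sdc1 stayed called in all 8 refits without 1 library, with log2 fold changes of 1.04 to 1.20. It was also the 1 member still called with ROSA 1 and ROSA 2 left out. The markers of epithelial and mesothelial cells, which can also carry Sdc1, summed to 25.9 to 59.4 CPM in BMPR2 DELX libraries and 34.4 to 53.6 CPM in ROSA libraries. These ranges overlapped, but 1 of the 9 tested markers was itself called, and 4 of the 13 stayed under 1 CPM in all libraries. The part of such cells in the Sdc1 result was not tested.

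Sdc3 (ENSMUSG00000025743, chromosome 4, 130792537 to 130826319), a syndecan best known in the nervous system and in muscle progenitors, had 251, 261, 276 and 300.03 CPM in BMPR2 DELX libraries, against 338, 303, 327 and 360 CPM in ROSA libraries. The groups did not overlap, but BMPR2 DELX 4 lay just under ROSA 2. In log2 units the difference was -0.29 ± 0.08 (SE, edgeR adjusted p = 0.0459). This call is close to the threshold and was lost in 7 of the 8 refits without 1 library, all but the refit without BMPR2 DELX 4, at log2 fold changes of -0.34 to -0.24. It was also lost with upper-quartile factors (adjusted p = 0.078), with the unstranded count column (adjusted p = 0.064), with ROSA 1 and ROSA 2 left out (adjusted p = 0.150) and with BMPR2 DELX 3 and ROSA 3 left out (adjusted p = 0.115). Schwann and neuronal markers summed to 362 to 521 CPM in BMPR2 DELX libraries and 395 to 537 CPM in ROSA libraries. Of these 6 markers, 4 stayed under 1 CPM in all libraries, so the sums rest on few genes. Only 3 were tested, and 1 of them was called. The part of such cells in the Sdc3 result was not tested.

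Sdc4, the syndecan found in focal adhesions, varied most among the ROSA libraries. It had 170, 160, 225 and 175 CPM in BMPR2 DELX libraries and 378, 317, 137 and 227 CPM in ROSA libraries. The groups overlapped because ROSA 3 was the lowest of all 8 libraries. Over all libraries the log2 fold change was -0.54 ± 0.29 (SE, edgeR adjusted p = 0.28). Without ROSA 3 it was -0.75 and called (edgeR adjusted p = 0.0448), and with ROSA 1 and ROSA 2 left out it was 0.02. Sdc2, a syndecan of mesenchymal cells, had 151, 135, 191 and 160 CPM in BMPR2 DELX libraries and 152, 168, 153 and 175 CPM in ROSA libraries, with a log2 fold change of -0.02 ± 0.10 (SE, edgeR adjusted p = 0.91).

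**Figure D3:**
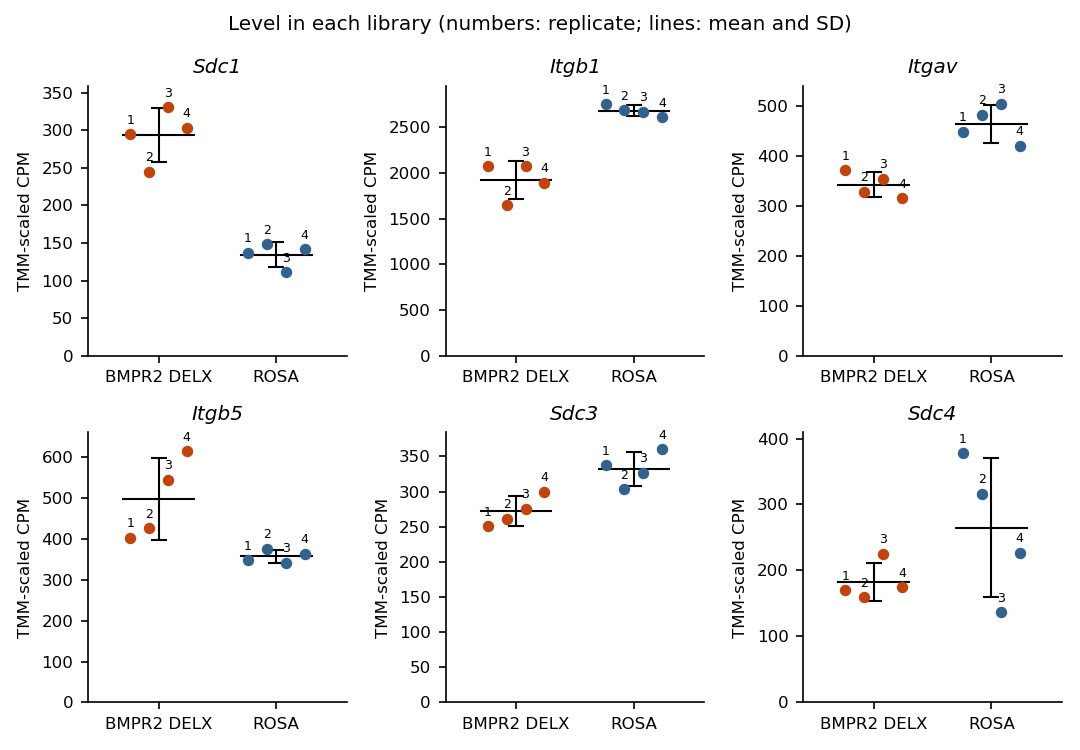
TMM-scaled CPM of the 5 called members and of Sdc4, which was not called, in each library. BMPR2 DELX is left of ROSA, with the replicate number beside each point and lines for the mean and SD. No called member shows overlap between the groups, while the groups overlap for Sdc4. Sdc1 averages 293 ± 35.8 CPM in BMPR2 DELX, against 135 ± 16.3 CPM in ROSA.

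The make-up of the syndecan pool differed accordingly. Per kilobase, Sdc1 was the highest syndecan in BMPR2 DELX 1, 2 and 4 and the next after Sdc4 in BMPR2 DELX 3, and it was the lowest in all 4 ROSA libraries. Sdc1 held 32.2 ± 1.32% of the summed syndecan CPM per kilobase in BMPR2 DELX and 14.9 ± 1.54% in ROSA. Sdc4 was the leading syndecan in 3 of the 4 ROSA libraries, with 52.2, 47.5 and 37.8% in ROSA 1, 2 and 4, while in ROSA 3 it held 29.7%. In BMPR2 DELX libraries Sdc4 held 28.2 to 32.1%. The summed syndecan level overlapped between the groups, at 209 to 276 CPM per kilobase in BMPR2 DELX libraries and 181 to 284 in ROSA libraries. Shares within a family move together by construction, so they describe the same counts and carry no test.

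**Figure D4:**
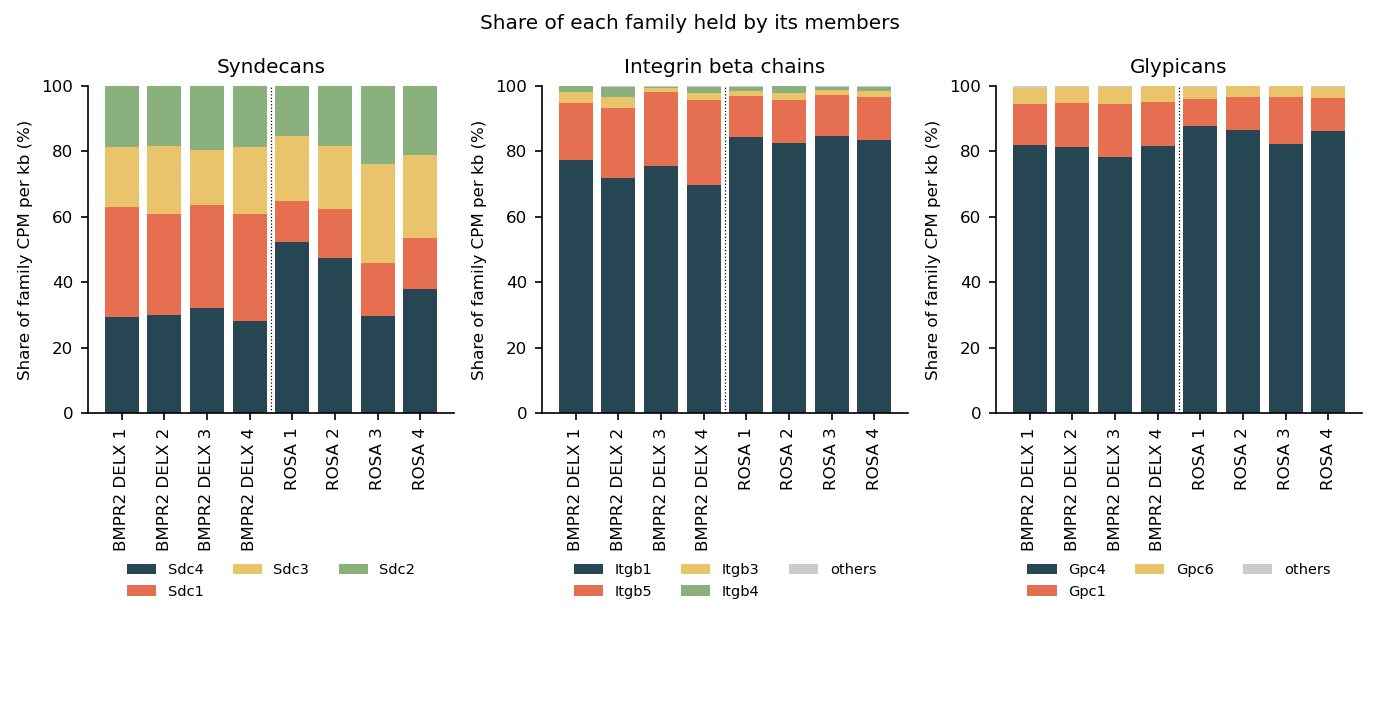
Share of each family's summed CPM per kilobase (percent) held by its leading members in each library, BMPR2 DELX left of the dotted line and ROSA right of it. Sdc1 holds about the same share in all 4 BMPR2 DELX libraries, and the Itgb5 share lies between 17.3 and 26.0% there, against 12.3 to 13.3% in ROSA.

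Among the beta chains, Itgb1 fell and Itgb5 rose in BMPR2 DELX. Itgb1 (ENSMUSG00000025809, chromosome 8, 128685654 to 128733200) had 2076, 1647, 2075 and 1896 CPM in BMPR2 DELX libraries, against 2756, 2685, 2671 and 2611 CPM in ROSA libraries. All ROSA libraries lay close together and above every BMPR2 DELX library. Itgb1 differed by a log2 fold change of -0.48 ± 0.08 (SE, edgeR adjusted p = 0.0101), and the call was kept in all 8 refits without 1 library. With ROSA 1 and ROSA 2 left out the log2 fold change was -0.44 and the edgeR adjusted p 0.11. Since Itgb1 is the most abundant member, the summed integrin level was lower too, at 1105 to 1272 CPM per kilobase in BMPR2 DELX libraries and 1340 to 1448 in ROSA libraries. These sums did not overlap with relative log expression or upper-quartile factors either.

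Itgb5 (ENSMUSG00000022817, chromosome 16, 33829665 to 33949338) had 403, 426, 545 and 615 CPM in BMPR2 DELX libraries, against 348, 376, 341 and 363 CPM in ROSA libraries. The groups did not overlap, and the BMPR2 DELX libraries were spread far more widely, with 497 ± 100.2 CPM against 357 ± 15.7 CPM in ROSA. Its log2 fold change was 0.48 ± 0.13 (SE, edgeR adjusted p = 0.0454). This call too is close to the threshold: it was lost in 7 of the 8 refits without 1 library, all but the refit without BMPR2 DELX 1, with edgeR adjusted p between 0.026 and 0.102 over the 8. It was also lost with the replicate block (edgeR adjusted p = 0.052), with ROSA 1 and ROSA 2 left out (0.213) and with BMPR2 DELX 3 and ROSA 3 left out (0.154). As a share of the summed beta chain level per kilobase, Itgb5 held 21.9 ± 3.62% in BMPR2 DELX and 12.8 ± 0.55% in ROSA, and Itgb1 held 73.6 ± 3.47% in BMPR2 DELX and 83.8 ± 1.09% in ROSA.

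Itgb3, the beta 3 chain of platelets and endothelium and another partner of alpha v, had 130, 113, 46.5 and 82.4 CPM in BMPR2 DELX libraries and 81.5, 97.9, 71.9 and 76.4 CPM in ROSA libraries. BMPR2 DELX 3 was the lowest and BMPR2 DELX 1 the highest of all 8, so the BMPR2 DELX range enclosed that of ROSA, and the log2 fold change was 0.18 ± 0.29 (SE, edgeR adjusted p = 0.73). Itgb4, the partner of alpha 6 in laminin binding, had 79.95, 127, 20.6 and 87.4 CPM in BMPR2 DELX libraries and 70.0, 114, 49.4 and 75.3 CPM in ROSA libraries, with a log2 fold change of 0.03 ± 0.49 (SE, edgeR adjusted p = 0.98). Itgb7 and Itgb8 were not called, at log2 fold changes of -0.51 ± 0.26 (SE, edgeR adjusted p = 0.24) and 0.72 ± 0.39 (SE, edgeR adjusted p = 0.27).

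Itgb2, the beta chain of leukocyte integrins, lay near the lower limit of detection. It had 0.753, 0.705, 1.03 and 0.782 CPM in BMPR2 DELX libraries and 0.311, 0.267, 0.532 and 0.525 CPM in ROSA libraries, with no overlap. At a log2 fold change of 1.01 ± 0.29 (SE), its edgeR adjusted p of 0.060 lay above the threshold. DESeq2 gave an adjusted p of 0.043 and limma voom with sample quality weights 0.039. The 10 macrophage markers summed to 45.5, 37.3, 69.8 and 50.1 CPM in BMPR2 DELX libraries and 24.7, 29.7, 33.4 and 36.1 CPM in ROSA libraries, also with no overlap. Of these markers 6 stayed under 1 CPM in all libraries and 1, Fcgr1, had at most 1 count, while Cd68 was called higher. The 8 leukocyte markers summed to 1.45 to 2.81 CPM in BMPR2 DELX libraries and 1.12 to 1.93 CPM in ROSA libraries. The part of such cells in the Itgb2 values was not tested.

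Among the alpha chains, Itgav fell and no chain rose. Itgav (ENSMUSG00000027087, chromosome 2, 83724397 to 83806916), which pairs with beta 1, beta 3, beta 5, beta 6 and beta 8, had 372, 329, 355 and 316 CPM in BMPR2 DELX libraries, against 449, 484, 506 and 421 CPM in ROSA libraries. All BMPR2 DELX libraries lay below all ROSA libraries. The difference of -0.44 ± 0.08 in log2 units (SE, edgeR adjusted p = 0.0120) kept its call in all 8 refits without 1 library, at -0.48 to -0.40. With ROSA 1 and ROSA 2 left out it was -0.42, with an edgeR adjusted p of 0.107. Itgav and its partner Itgb5 thus moved in opposite directions, as single transcripts. The Itgb5 call, unlike that of Itgav, was lost in 7 of the 8 refits without 1 library. The levels of the receptor pairs were not measured.

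Itgav belongs to the 4 alpha chains that bind RGD motifs, and the other 3 were not called. Itga5 had 1647, 1933, 2313 and 2131 CPM in BMPR2 DELX libraries and 2436, 2169, 2089 and 2393 CPM in ROSA libraries, with a log2 fold change of -0.18 ± 0.11 (SE, edgeR adjusted p = 0.31). Itga8, a chain of contractile mesenchymal cells, had 4.39, 4.26, 2.94 and 4.38 CPM in BMPR2 DELX libraries and 11.3, 9.95, 3.09 and 6.74 CPM in ROSA libraries. ROSA 3 lay within the BMPR2 DELX range and the other ROSA libraries above it. Its log2 fold change was -0.96 ± 0.35 (SE, edgeR adjusted p = 0.12), and without ROSA 3 it was -1.22 and called (edgeR adjusted p = 0.015). DESeq2 called Itga8 with all libraries in (adjusted p = 0.027). Itga2b, the platelet chain, had a log2 fold change of -0.12 ± 0.23 (SE, edgeR adjusted p = 0.78) at levels of 1.21 to 2.19 CPM in BMPR2 DELX libraries and 1.40 to 2.29 CPM in ROSA libraries.

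None of the 4 collagen-binding chains was called, with Itga11 the most abundant of them. Itga11 had 179, 162, 217 and 178 CPM in BMPR2 DELX libraries and 212, 198, 196 and 227 CPM in ROSA libraries, with a log2 fold change of -0.18 ± 0.09 (SE, edgeR adjusted p = 0.25). Itga1, Itga2 and Itga10 had log2 fold changes of -0.03, 0.18 and 0.24. A predicted gene, Gm42957, covers 33.5% of the exon length of Itga10 on the same strand, so the reads of Itga10 are uncertain. Itga9, which with alpha 4 forms a class of its own, had 148, 124, 169 and 157 CPM in BMPR2 DELX libraries and 86.1, 96.7, 126 and 158 CPM in ROSA libraries. Its ROSA libraries covered a wide range that reached into that of BMPR2 DELX, and its log2 fold change was 0.36 ± 0.18 (SE, edgeR adjusted p = 0.25).

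Several uncalled chains shared a pattern over libraries. Itga6 had 232, 239, 72.8 and 175 CPM in BMPR2 DELX libraries and 150, 182, 151 and 172 CPM in ROSA libraries. Itga3, also a laminin-binding chain, had 166, 222, 94.3 and 126 CPM in BMPR2 DELX libraries and 194, 244, 117 and 137 CPM in ROSA libraries. Itga4, a receptor for Vcam1 and fibronectin, had 9.75, 15.4, 3.55 and 9.54 CPM in BMPR2 DELX libraries and 14.4, 21.7, 10.9 and 13.2 CPM in ROSA libraries. In each of these, and in Itgb3 and Itgb4, BMPR2 DELX 3 was the lowest BMPR2 DELX library. The highest BMPR2 DELX library exceeded the lowest 6.16-fold for Itgb4, 4.33-fold for Itga4, 3.28-fold for Itga6, 2.79-fold for Itgb3 and 2.35-fold for Itga3. In ROSA the same ratios were 2.30 for Itgb4, 1.99 for Itga4, 1.21 for Itga6, 1.36 for Itgb3 and 2.08 for Itga3, and ROSA 3 was the lowest library for all but Itga6.

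The 12 endothelial markers moved with these libraries. They summed to 2146, 2197, 659 and 1285 CPM in BMPR2 DELX libraries and 1761, 2102, 1034 and 1609 CPM in ROSA libraries, and BMPR2 DELX 3 and ROSA 3 were the lowest in their groups. None of the 11 tested markers was called, and Cdh5, the endothelial cadherin, averaged 276 CPM in BMPR2 DELX libraries against 311 in ROSA libraries. Log2 fold changes over all 8 libraries were 0.13 ± 0.33 for Itga6, -0.19 ± 0.31 for Itga3 and -0.66 ± 0.40 for Itga4 (SE), with edgeR adjusted p of 0.83, 0.75 and 0.34. Itga7, the laminin-binding chain of muscle, had 10.3 to 13.5 CPM in BMPR2 DELX libraries and 8.25 to 20.8 CPM in ROSA libraries, with a log2 fold change of -0.28 ± 0.24 (SE, edgeR adjusted p = 0.50). With the endothelial score of each library as a covariate, Itga4 had a log2 fold change of -0.76 and an edgeR adjusted p of 0.023, and Itga6 one of -0.01. Under the same covariate Sdc1, Itgb1, Itgav, Itgb5 and Sdc3 stayed called.

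No glypican was called by edgeR, DESeq2 or limma voom. An unadjusted p below 0.05 in edgeR was found for 2 of the 5 tested, against 26.3% of all genes. These were Gpc6 and Gpc2, both with higher values in BMPR2 DELX. Gpc4, the leading glypican, had 291, 299, 327 and 398 CPM in BMPR2 DELX libraries and 456, 382, 308 and 409 CPM in ROSA libraries, with a log2 fold change of -0.24 ± 0.13 (SE, edgeR adjusted p = 0.28). Gpc1 had 85.7, 96.2, 131 and 130 CPM in BMPR2 DELX libraries and 86.5, 84.5, 105 and 90.6 CPM in ROSA libraries, with a log2 fold change of 0.27 ± 0.14 (SE, edgeR adjusted p = 0.26). Both overlapped between the groups. Gpc6 had 43.7, 43.4, 52.1 and 55.4 CPM in BMPR2 DELX libraries and 45.1, 36.0, 28.6 and 41.5 CPM in ROSA libraries, with a log2 fold change of 0.36 ± 0.14 (SE, edgeR adjusted p = 0.13).

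Read as shares of the summed glypican level per kilobase, the glypicans kept 1 order in every library, Gpc4 over Gpc1 over Gpc6. Gpc6 held 4.68 to 5.15% in BMPR2 DELX libraries and 3.16 to 3.61% in ROSA libraries. Gpc4 held 80.8 ± 1.65% in BMPR2 DELX and 85.7 ± 2.35% in ROSA. Gpc2 and Gpc3 were near the lower limit, with log2 fold changes of 1.19 ± 0.39 (SE, edgeR adjusted p = 0.089) and 0.25 ± 0.67 (SE, edgeR adjusted p = 0.85). Gpc3 had 1.01, 0.733, 1.03 and 0.268 CPM in BMPR2 DELX libraries and 1.27, 0.510, 0.0333 and 0.700 CPM in ROSA libraries, where ROSA 3 held 1 count. Gpc2 had 1.15, 0.423, 0.705 and 0.626 CPM in BMPR2 DELX libraries and 0.186, 0.243, 0.333 and 0.496 CPM in ROSA libraries. Both genes overlapped between the groups, and a predicted gene, Gm43720, covers 55.6% of the Gpc2 exon length on the same strand, so the reads of Gpc2 are uncertain.

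Called genes among the adaptors of integrin adhesions were mostly lower in BMPR2 DELX. Of 39 tested adaptors, 1 was higher, 5 were lower and 33 were not called, so that 15.4% were called against 9.1% of all genes. The list was chosen with earlier results of these data known, so this share and the signs below carry no test. Values were negative for 30 of the 39, and their median log2 fold change was -0.17, and -0.13 with upper-quartile factors, against 0.0045 for all genes tested. Tns3, a tensin that links integrin tails to actin, had 394, 400, 478 and 458 CPM in BMPR2 DELX libraries, against 586, 571, 600 and 552 CPM in ROSA libraries. The groups lay well apart, with a log2 fold change of -0.42 ± 0.08 (SE, edgeR adjusted p = 0.0131). Tns3 stayed called without any 1 library. The calls of the other adaptors named here were lost in 5 to 7 of the 8 such refits. Rsu1, at a log2 fold change of -0.29, kept its call without BMPR2 DELX 3, BMPR2 DELX 4 or ROSA 3, and Bcar1, at -0.38, without ROSA 3 alone. Tns4, at -1.47, kept it without BMPR2 DELX 3 or ROSA 4. The talin Tln2, at 0.33 the 1 adaptor that was higher, kept it without BMPR2 DELX 1 alone. Tns4 was at 0.394 ± 0.212 CPM in BMPR2 DELX, against 1.10 ± 0.308 CPM in ROSA.

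**Figure D5:**
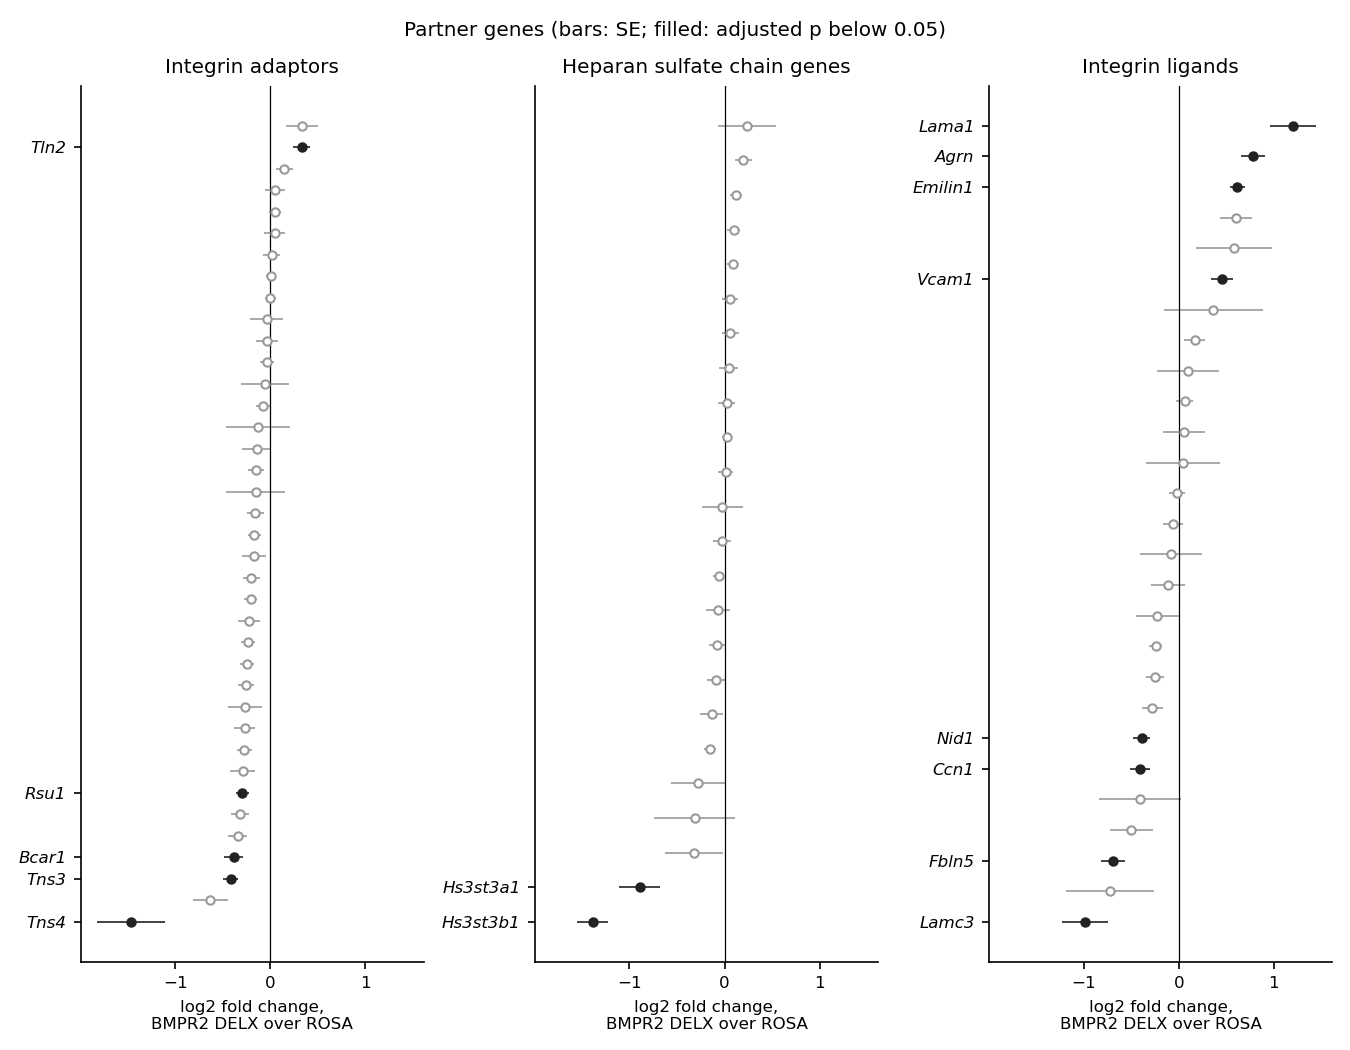
Log2 fold change (BMPR2 DELX over ROSA, SE bars) of integrin adaptors, heparan sulfate chain genes and integrin ligands. Filled points with names mark adjusted p below 0.05. Most adaptors lie left of 0, while calls among the ligands fall on both sides, with Lama1 at 1.21 and Lamc3 at -0.99.

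Enzymes that build and modify heparan sulfate, the chains carried by syndecans and glypicans, held 2 calls among 24 tested (8.33%, against 9.1% of all genes). Both genes were lower and both encode 3-O-sulfotransferases. Hs3st3b1 had 3.53, 3.86, 3.61 and 4.51 CPM in BMPR2 DELX libraries, against 12.7, 11.2, 8.18 and 8.61 CPM in ROSA libraries. With no overlap between the groups, its log2 fold change was -1.39 ± 0.16 (SE, edgeR adjusted p = 0.0027), and the call was kept without any 1 library. Hs3st3a1 had 1.09 ± 0.205 CPM in BMPR2 DELX, against 2.01 ± 0.369 CPM in ROSA, with a log2 fold change of -0.89 ± 0.21 (SE, edgeR adjusted p = 0.0316) that kept its call without BMPR2 DELX 3 or ROSA 3 and lost it in the other 6 refits. The 2 genes are close paralogs, so reads could be split between them. Of the 6 genes whose products bind syndecan tails, edgeR, DESeq2 and limma voom called 0. Among them 1 had an unadjusted p below 0.05 in edgeR, against 26.3% of all genes.

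Ligands of integrins changed in both directions, with 4 higher, 5 lower and 19 not called of 28 tested (32.1%, against 9.1% of all genes). This list too was chosen with earlier results of these data known, so the share carries no test. Lama1, a laminin alpha chain of basement membranes, had 15.5, 17.5, 19.0 and 15.8 CPM in BMPR2 DELX libraries, against 8.98, 8.81, 3.59 and 7.91 CPM in ROSA libraries. The groups were well apart, with a log2 fold change of 1.21 ± 0.24 (SE, edgeR adjusted p = 0.0197), and the call was lost without BMPR2 DELX 2 (edgeR adjusted p = 0.051). Agrn, the heparan sulfate proteoglycan agrin, had 40.0 ± 7.24 CPM in BMPR2 DELX, against 23.3 ± 2.09 CPM in ROSA, a log2 fold change of 0.78 ± 0.12 (SE, edgeR adjusted p = 0.0077). Emilin1, an elastic fibre glycoprotein, had 149 ± 11.3 CPM in BMPR2 DELX, against 97.3 ± 7.94 CPM in ROSA, a log2 fold change of 0.62 ± 0.08 (SE, edgeR adjusted p = 0.0033). Vcam1, the ligand of alpha 4 integrins, was called at 0.46 ± 0.12 (SE, edgeR adjusted p = 0.0407), and the call was lost in 7 of the 8 refits without 1 library, all but that without BMPR2 DELX 3.

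Among the ligands that fell, Fbln5, an elastic fibre protein that binds alpha v and beta 1 integrins, had 75.5, 79.6, 113 and 92.2 CPM in BMPR2 DELX libraries, against 162, 140, 149 and 133 CPM in ROSA libraries. Its log2 fold change was -0.69 ± 0.12 (SE, edgeR adjusted p = 0.0123). Agrn, Emilin1 and Fbln5 were called in all 8 refits without 1 library. Nid1, Ccn1 and Lamc3 fell by 0.39, 0.41 and 0.99 on the log2 scale and lost their calls in 5, 6 and 7 of these refits. Nid1 kept its call without BMPR2 DELX 2, BMPR2 DELX 4 or ROSA 4, Ccn1 without ROSA 3 or ROSA 4, and Lamc3 without ROSA 3. Lama1 and Lamc3, both laminin chains, thus moved in opposite directions.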

How the data were processed

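Polyadenylated RNA of 4 BMPR2 DELX and 4 ROSA samples was sequenced, and the authors deposited raw read counts per Ensembl gene, 1 table per sample. GRCm38, STAR 2.5.2b and HTSeq are named, with no role, in the submitters' processing notes; the annotation release is not given in the sources used here. The lines that name no gene held 14.7% to 22.0% of the reads of a library and were left out. The opposite-strand count column was used, since it held 93.4% of strand-assigned counts. GENCODE M21 gave symbols and positions for 49412 of the gene IDs.

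Genes were filtered with filterByExpr (minimum count 10) and compared by edgeR 4.0.16 in R 4.3.3, with TMM factors, robust dispersion and no block for the replicate number. Over 12 pairs of libraries within a group, counts differed beyond sampling noise (chi-square per degree of freedom 31.1 to 158), so no library was counted as a duplicate. Level per length is CPM per kilobase of the exon union. Each edgeR SE was derived from the test, as the absolute log2 fold change over the square root of its F statistic. Alternatives were upper-quartile and relative log expression factors, DESeq2 1.42.0, voom in limma 3.58.1, other count filters, the unstranded column, the replicate block, left-out libraries and an endothelial covariate. The endothelial score averages log2 CPM (prior count 2) over the tested markers. Intervals and floors cover counting error only.

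The members, gene lists and left-out pairs of libraries were chosen with earlier results of these data known. Full values are given for each called member, for the highest members per length of the alpha and beta chains, and for all syndecans and all tested glypicans; of each partner list, up to 5 called genes each way with the smallest p are named. A few that this takes are not reported here, in text or figures. Others, such as Itga8, Itga4 and Itgb2, were chosen after their values were seen.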

Additional observations from a re-analysis of the deposited data

Results flagged for a closer look

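Itga8, the alpha chain that pairs with beta 1, had 2.94 CPM in BMPR2 DELX 3, while the other BMPR2 DELX libraries lay between 4.26 and 4.39 CPM. The library stood apart from the rest of its group by more than Dixon's 95% critical value for 4 samples, with a gap of 0.911 of the group's range. It was the 1 such value among 58 groups of 4 libraries screened (each tested member in each genotype). Chance gives about 1 in 20 groups, so 1 value among 58 is no more than chance would give. BMPR2 DELX 3 also had the lowest endothelial marker sum, 659 CPM, and the part of that in the Itga8 value was not tested.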

How the results depend on the processing

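Sdc1 was called under every setting run, and Itgb1 and Itgav under all but 1, the refit with ROSA 1 and ROSA 2 left out. For the 5 called members, 72 of 95 refits kept the call and its direction, 23 lost the call and 0 changed direction. For 17 uncalled members with values, 290 of 320 refits gave the same outcome, 9 reached the threshold and 21 changed direction. Itga8, Itga4 and Itgb2 are among these 17 because an alternative setting called them, so the tally depends partly on that choice. Members called higher numbered 1 with the replicate block, with ROSA 1 and ROSA 2 left out, and with BMPR2 DELX 3 and ROSA 3 left out, and 1 to 2 without 1 library. Members called lower numbered 0 with ROSA 1 and ROSA 2 left out, and 2 to 4 without 1 library. Over all genes, 2268 were called by DESeq2, which was run on 28614 genes, against 14887 in the main edgeR fit. The edgeR refits called 172 with ROSA 1 and ROSA 2 left out, 631 without BMPR2 DELX 3 and ROSA 3, and 477 to 1266 without 1 library. Upper-quartile factors gave 734 higher and 606 lower. Adaptors called numbered 13 by DESeq2, 11 by voom, 0 with ROSA 1 and ROSA 2 left out and 2 to 5 without 1 library. Heparan sulfate genes numbered 1 with the unstranded column, the replicate block and ROSA 1 and ROSA 2 left out, and 1 to 2 without 1 library. Ligands numbered 1 with ROSA 1 and ROSA 2 left out, 5 without BMPR2 DELX 3 and ROSA 3 and 5 to 8 without 1 library. The cause of these moves was not tested, though leaving out libraries also leaves fewer samples.

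Log2 fold changes that changed sign were all of uncalled members. With ROSA 1 and ROSA 2 left out, Itga3 gave 0.27 and Sdc4 0.021. Itga6 gave -0.015 by voom and -0.0067 with the endothelial covariate. Itgb4 gave -0.19 by voom, -0.15 with the replicate block and -0.12 with the covariate. Sdc2 gave 0.016 with upper-quartile factors, and Gpc3 -0.32 without BMPR2 DELX 3 and ROSA 3. Without 1 library, values ran from -0.43 to 0.032 for Itga3, -0.035 to 0.39 for Itga6, -0.018 to 0.40 for Itgb3, -0.30 to 0.35 for Itgb4, -0.12 to 0.051 for Sdc2 and -0.13 to 0.83 for Gpc3.

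No label ties equal replicate numbers together, so the numbers were not taken as pairs. With each gene's group mean subtracted, the log2 CPM of same-numbered libraries correlated at 0.005 to 0.24 over 4 pairs. Against the other group, 5 of 8 libraries correlated best with their own number, so this check does not settle whether the numbers are pairs. With the replicate block, 563 genes were higher and 682 lower, and among members Itgb5 lost its call (adjusted p = 0.052). Depth limits Itgb2, Itgb8, Gpc2 and Gpc3, whose mean was under 1 CPM in both groups.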
